A study of Mus musculus with 6 samples.

Results

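The Schlafen family was followed through bulk RNA-seq of mouse leukemia cells, and its members were the 7 named genes Slfn1, Slfn2, Slfn3, Slfn4, Slfn5, Slfn8 and Slfn9 among 53618 named genes in the expression table. The cells were GFP+Lin-c-Kit+ splenocytes carrying AE9a, a shortened form of the AML1-ETO fusion that causes acute myeloid leukemia when expressed in mouse blood progenitors. All of them came from Usp18+/f UBCER-Cre leukemia cells passed through sublethally irradiated C57BL/6 recipients, so both groups share AE9a, GFP, the Cre transgene and a floxed Usp18 allele. The tamoxifen-activated Cre is expressed in all tissues of its own line, while host cells of the recipients lack it. Once sick, 3 mice received corn oil (labelled Usp18+/f) and 3 received tamoxifen in corn oil (labelled Usp18+/delta), and cells were sorted 3 days after the first injection, with 1 library per mouse. Mice of both sexes were used in the study as young adults, and the labels give neither for single libraries. Since only the libraries labelled tamoxifen received the drug, deletion of the allele, Cre activity and tamoxifen itself cannot be told apart. The comparison asks which transcripts differ after the intended loss of an allele of Usp18, a negative regulator of type I interferon signaling.

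Schlafen genes take their name from the German word for sleep, after the growth arrest that forced Slfn1 expression brings about in thymocytes. The proteins share an RNA-binding and nuclease-like core, and fall into a short group (Slfn1 and Slfn2), an intermediate group (Slfn3 and Slfn4) and a long group with an added helicase-like part (Slfn5, Slfn8 and Slfn9). Several members are interferon-stimulated genes in immune cells, and the family is known for its part in lymphocyte quiescence, myeloid differentiation and restriction of viral translation. Type I interferon acts through a transcription factor complex that binds an interferon-stimulated response element (ISRE) in target promoters.

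All 7 members lie in a single cluster on chromosome 11 (GENCODE vM21, GRCm38). Slfn5 is at chr11:82951349-82964840 on the plus strand, followed by Slfn9 at chr11:82978390-82991830 and Slfn8 at chr11:83002158-83020810, both on the minus strand. Slfn2 at chr11:83065112-83070678, Slfn1 at chr11:83116849-83122670, Slfn4 at chr11:83175186-83190216 and Slfn3 at chr11:83191330-83215154 follow on the plus strand. The transcribed pseudogene Slfn10-ps sits between Slfn8 and Slfn2, and Slfn14 lies beyond Slfn3. Neither was a member.

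The sequences before the start sites are shown for the members on which the comparison turns, namely Slfn5 and Slfn2 with the largest differences and the sister genes Slfn8 and Slfn9. They were taken from RefSeq (GRCm38.p6) and run 5′ to 3′ on the gene's strand, from base 200 to base 1 before the start, at chr11:83064912-83065111 for Slfn2, chr11:82991831-82992030 for Slfn9 and chr11:83020811-83021010 for Slfn8. The Slfn5 stretch, chr11:82951902-82951984, is placed by the RefSeq start at position 82952102, which lies 753 bases inside the GENCODE gene, and stops at base 118 because an annotated exon of another Slfn5 transcript begins there. Capitals mark the ISRE core, searched as GAAANNGAAA on either strand.
Slfn5: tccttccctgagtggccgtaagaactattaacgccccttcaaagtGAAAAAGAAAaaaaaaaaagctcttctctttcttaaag
Slfn2: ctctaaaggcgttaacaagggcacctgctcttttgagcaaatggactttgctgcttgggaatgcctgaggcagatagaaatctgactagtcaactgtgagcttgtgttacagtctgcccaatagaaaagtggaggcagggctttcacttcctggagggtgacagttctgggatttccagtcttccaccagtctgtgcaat
Slfn9: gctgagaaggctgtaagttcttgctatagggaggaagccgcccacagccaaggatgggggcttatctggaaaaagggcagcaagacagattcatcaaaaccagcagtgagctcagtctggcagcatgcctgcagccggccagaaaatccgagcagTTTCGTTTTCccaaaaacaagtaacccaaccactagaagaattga
Slfn8: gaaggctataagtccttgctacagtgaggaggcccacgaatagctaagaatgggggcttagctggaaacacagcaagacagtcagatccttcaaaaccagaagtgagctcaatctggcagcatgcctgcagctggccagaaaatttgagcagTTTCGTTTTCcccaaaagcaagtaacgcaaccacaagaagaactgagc

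All 7 members had a RefSeq promoter window, 8 windows in all since Slfn8 has a second listed start, and a window reaches from 250 bases before to 50 bases after the start. The ISRE core was found for 3 members, with its first base 155 bases before the RefSeq start in Slfn5 (598 bases after the start of the GENCODE gene), 45 bases before it in Slfn9 and 48 bases before the first listed start of Slfn8, a site that the second Slfn8 window also holds. In Slfn5 it lies in the sense orientation within a run of adenines. In Slfn9 and Slfn8 it is the same antisense TTTCGTTTTC, and these windows were 84.9% identical over 292 aligned bases. The windows of Slfn2, Slfn1, Slfn3 and Slfn4 did not hold these letters. The core occurred in 3.44% of all 32851 promoter windows of the same length and in 3.99% of the 27025 genes with a window. The letters TTCNNNGAA of the gamma-activated site (GAS), another interferon-responsive element, occurred in 8.30% of all windows and in none of the members' windows. A match describes the letters only, and binding was not measured here.

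The libraries held 19172471 to 23785143 reads, and 5 of the 7 members (Slfn2, Slfn3, Slfn5, Slfn8 and Slfn9) passed the filter of a normalised read count of at least 10 in at least 3 libraries, as 12298 genes did. Normalised read counts here are reads divided by a size factor per library. Usp18 itself was not lower in the libraries labelled tamoxifen, with 217, 214 and 176 in oil 1 to 3 and 477, 329 and 284 in tamoxifen 1 to 3. The label Usp18+/delta leaves an intact allele, so a higher count does not by itself go against the labels. Groups are given as labelled. Whether the counted reads came from the intact allele or lie outside the deleted part of the gene was not tested. Nor was an exchange of the labels, which would turn the sign of every difference given here. As labelled, the interferon-stimulated gene Ifit1 (32.3 ± 7.24 in oil and 254 ± 38.7 in tamoxifen, SD, n = 3 each) was higher in every tamoxifen library. The library labelled tamoxifen 1 stood apart, with a median correlation of 0.9125 with the others against 0.981 to 0.990 elsewhere, a deviation that followed GC content (Spearman's rho 0.687 across genes) and 0.00923% mitochondrial reads against 1.01% to 1.56%. Kit, the sorted surface receptor, was at 4687 to 10976 in all 6 libraries. Ptprc, which encodes the pan-leukocyte protein CD45, was near 0 at 0.898 to 8.08, while the erythroid marker list summed to 48454 to 85489.

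Slfn5 and Slfn2 were about 4-fold higher in the libraries labelled tamoxifen, and the other tested members differed less. Slfn5 encodes a nuclear, interferon-inducible member of the long group. Its normalised read count was 26.0, 27.0 and 26.9 in oil 1 to 3 and 55.0, 113 and 159 in tamoxifen 1 to 3. These came from 29, 28 and 29 reads in oil and 43, 112 and 175 reads in tamoxifen. The oil libraries were nearly equal, with a coefficient of variation of 2.0% where counting error at that depth alone gives 18.7%, so their SD understates the error. Every tamoxifen library lay above them, and tamoxifen 1 was the lowest of its group. Group means of 26.7 ± 0.534 in oil and 109 ± 52.2 in tamoxifen (SD, n = 3 each) gave a 4.09-fold ratio, and the log2 fold change in limma was 1.87 ± 0.41 (SE), with an unadjusted p of 0.00322 and an adjusted p of 0.666.

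Slfn2 encodes a short member that keeps T cells and monocytes quiescent and binds tRNA. It stood at 80.8, 102 and 58.5 in oil 1 to 3 and at 428, 206 and 266 in tamoxifen 1 to 3. The groups did not overlap, and oil 3 was the lowest of the 6 libraries. Tamoxifen 1 was the highest library for Slfn2 and the lowest of its group for Slfn5. Its group means of 80.5 ± 21.9 in oil and 300.2 ± 115 in tamoxifen (SD, n = 3 each) gave a 3.73-fold ratio, with a log2 fold change of 1.85 ± 0.35 (SE), an unadjusted p of 0.00133 and an adjusted p of 0.580 in limma.

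**Figure D1:**
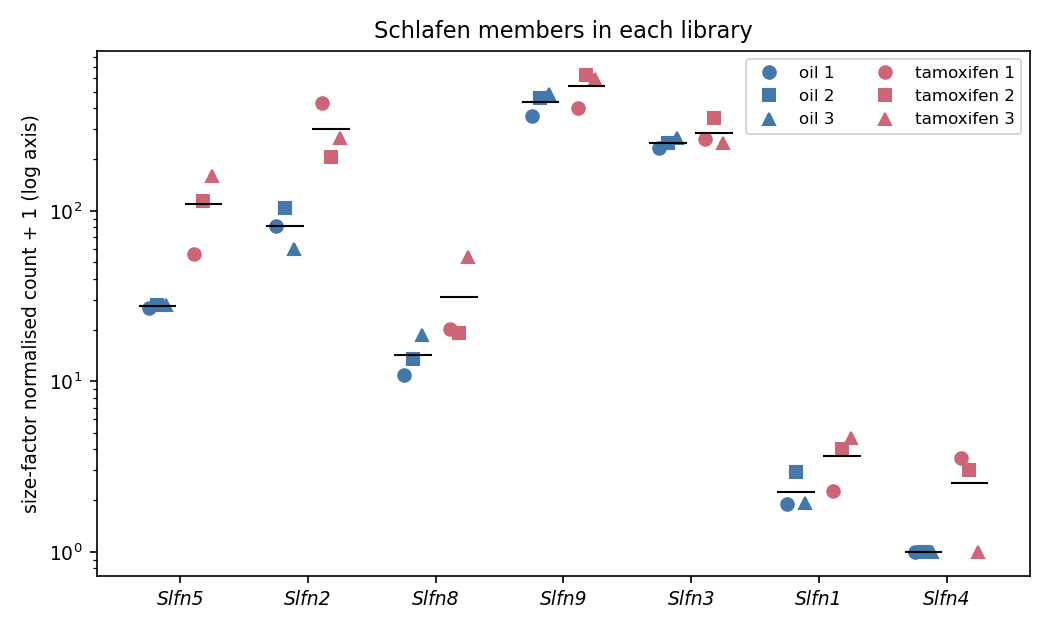
Size-factor normalised read count plus 1, on a log axis, of each Schlafen member in every library. Blue symbols are the 3 oil libraries, red symbols the 3 tamoxifen libraries, symbol shape gives the replicate number and black lines are group means. Every tamoxifen library lies above every oil library for Slfn5, Slfn2 and, narrowly, Slfn8, and the groups overlap for the other 4 members.

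Slfn8, a long-group gene close to Slfn9, was low in every library. It was at 9.88, 12.5 and 17.6 in oil 1 to 3, from 11, 13 and 19 reads. It was at 19.2, 18.2 and 52.7 in tamoxifen 1 to 3, from 15, 18 and 58 reads. The groups did not overlap, but tamoxifen 2 and oil 3 were separated by less than the value of a single read, and tamoxifen 3 alone was far above the rest. The log2 fold change was 0.97 ± 0.50 (SE), with an adjusted p of 0.666 in limma, and 0.49 without tamoxifen 3.

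Slfn9 took the most reads of the family and differed little between the groups. It stood at 360, 458 and 481 in oil 1 to 3 and at 400, 628 and 594 in tamoxifen 1 to 3. Tamoxifen 1 fell within the oil range, and the other tamoxifen libraries lay above it. The log2 fold change was 0.30 ± 0.24 (SE), with an adjusted p of 0.666 in limma. Without tamoxifen 1 the groups did not overlap, and the log2 fold change was 0.51, with an unadjusted p of 0.00459 and an adjusted p of 0.189 in limma. Fewer libraries separate more easily, and the share of all genes without overlap is not given for this setting. The log2 fold change was 0.18 without oil 1 and 0.18 without tamoxifen 2, so its size depended on single libraries.

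Slfn3, an intermediate member described in T cells and in differentiating gut epithelium, was the steadiest. Its normalised read count was 233, 250 and 266 in oil 1 to 3 and 263, 349 and 248 in tamoxifen 1 to 3. Of the tamoxifen libraries, only tamoxifen 2 lay above the oil range. The log2 fold change was 0.18 ± 0.20 (SE), with an adjusted p of 0.681 in limma, 0.036 without tamoxifen 2 and 0.28 without tamoxifen 3.

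Slfn1 and Slfn4 were barely detected. Slfn1, the founding member of the family, had 1, 2 and 1 reads in oil 1 to 3 and 1, 3 and 4 reads in tamoxifen 1 to 3, a ratio of summed reads of 2.25 after scaling with an exact 95% counting interval of 0.602 to 10.2. Slfn4, which interferon induces strongly in macrophages, had no read in any oil library and 2, 2 and 0 reads in tamoxifen 1 to 3. Both groups were under the 3 reads in a library that a count of 0 allows, so no fold is given. Intervals and floors cover counting error only.

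No member passed an adjusted p of 0.05 in limma, where 0 of 12298 genes were called in all (0%) and 550 had an unadjusted p under 0.05. At a second threshold, which asks for both a log2 fold change above 0.5 in size and an unadjusted p below 0.005, Slfn5 and Slfn2 passed, 2 of the 5 tested members against 0.480% of all genes tested that were higher at this threshold. Groups did not overlap, in the higher direction, for 3 of the 5 tested members against 7.86% of all genes tested. The second threshold depended on single libraries. No member passed it without oil 1 or without oil 3, and only Slfn2 did without oil 2, tamoxifen 2 or tamoxifen 3. Slfn5, Slfn2 and Slfn9 passed without tamoxifen 1, where 1.35% of all genes tested were higher at this threshold. For the other fits that share is not given. Over all genes tested, 324, 225 and 252 had an unadjusted p under 0.05 in limma without oil 1, 2 and 3. Without tamoxifen 1, 2 and 3 these were 1488, 1073 and 408, so the fits differed for all genes as well. An exact permutation test of 3 against 3 libraries cannot go below 0.1.

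DESeq2 on the recovered reads called Slfn5 (adjusted p = 0.00401) and Slfn2 (adjusted p = 0.00058) with all 6 libraries, where 0.451% of genes were called higher. edgeR's quasi-likelihood test on the same reads called none. Without tamoxifen 1, limma called Slfn5 with a log2 fold change of 2.29 ± 0.24 (SE, adjusted p = 0.00401) and Slfn2 with 1.57 ± 0.25 (SE, adjusted p = 0.0377), against 0.309% of all genes called higher. DESeq2 and edgeR also called both without that library, and no other member, where they called 1.38% and 0.341% of genes higher. With library weights, limma called Slfn5, Slfn2, Slfn8 and Slfn9, but there 3.82% of all genes were called higher and tamoxifen 1 carried a weight of 0.0377. Slfn5 and Slfn2 therefore passed an adjusted threshold in 5 of the 21 alternatives. Apart from DESeq2 with all 6 libraries, these left tamoxifen 1 out or gave it that low weight, so they are not independent of each other. DESeq2 and edgeR without tamoxifen 1 were chosen after seeing the data. Both members were above 0 in all 21, between 1.53 and 2.41 for Slfn5 and between 1.57 and 2.09 for Slfn2.

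**Figure D2:**
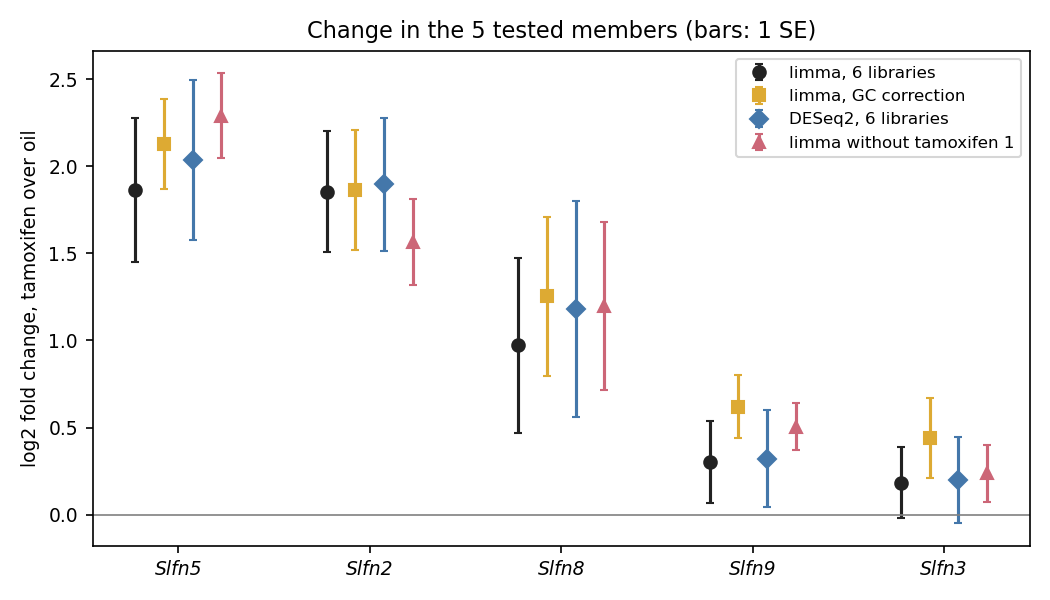
Log2 fold change (tamoxifen over oil) of the 5 tested members under limma with 6 libraries, limma after GC correction, DESeq2 with 6 libraries and limma without tamoxifen 1, with bars of 1 SE. Slfn5 and Slfn2 lie between 1.57 and 2.29 in all of these fits, while Slfn9 and Slfn3 stay at or below 0.62.

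Since the deviation of tamoxifen 1 followed GC content, the members were also compared after a GC correction. The longest transcript of Slfn2 has a GC content of 49.5%, and those of the other tested members lie between 43.2% and 44.5%. After the correction the log2 fold change was 2.13 for Slfn5 (adjusted p = 0.0974) and 1.86 for Slfn2 (adjusted p = 0.262) in limma. Those of Slfn8, Slfn9 and Slfn3 were 1.25, 0.62 and 0.44, and none of the 5 passed. Slfn9 had an unadjusted p of 0.011 in limma, and its groups, which overlapped before the correction, did not overlap after it. The groups of Slfn2, Slfn5 and Slfn8 again did not overlap. The share over all genes is not given for this setting, so these separations cannot be read as particular to the members. Over all genes tested, 824 had an unadjusted p under 0.05 in limma after the correction and 550 before it.

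Whether Slfn5 differed more than its relatives was examined by the log2 ratio of Slfn5 to each other tested member within a library, over 4 pairs. The ratio to Slfn3 went from -3.18 ± 0.0756 in oil to -1.50 ± 0.807 in tamoxifen (SD, n = 3 each), a difference of 1.68 with an exact permutation p of 0.1 and 0.133 after adjustment over the 4 pairs. The ratio to Slfn9 differed by 1.56 and that to Slfn8 by 0.89, with the same p-values. For these 3 pairs every tamoxifen library lay above every oil library, and 0.1 is the smallest p that 3 against 3 allows. The difference for Slfn8 was 0.54 without tamoxifen 2 (exact permutation p = 0.2) and 0.69 without oil 3 (exact permutation p = 0.3). The ratio to Slfn2 differed by only 0.011, with overlapping groups (exact permutation p = 1, n = 3 each). In tamoxifen 1 this ratio was -2.94, outside the -1.88 to -0.74 of the other 5 libraries, and without tamoxifen 1 the difference was 0.72. It was -0.32 without tamoxifen 2, -0.38 without tamoxifen 3 and 0.26 after GC correction, so its size and sign depended on the libraries and the setting.

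Per kilobase of merged exon, the order of the family differed between the groups. In oil, Slfn3 (73.2 ± 4.96 normalised reads per kb) and Slfn9 (72.6 ± 10.8) led and did not differ beyond their spread, and Slfn2, which overlapped Slfn9, followed at 48.4 ± 13.2 (SD, n = 3 each). Slfn5 (4.21 ± 0.0844) and Slfn8 (3.26 ± 0.964) were more than 10 times lower and overlapped each other. In tamoxifen, Slfn2 was first at 180.4 ± 69.0, above Slfn9 (90.7 ± 20.6) in every library, while Slfn9 and Slfn3 (84.1 ± 15.9) again overlapped. Slfn5 reached 17.2 ± 8.25 and still lay below these 3 in every library. Slfn1 and Slfn4 came last in both groups.

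The summed normalised read count of the 7 members was 805 ± 81.5 in oil and 1271 ± 88.0 in tamoxifen (SD, n = 3 each), a ratio of 1.58. Slfn9 gave 53.7% ± 2.90 of the members' reads in oil and 42.2% ± 7.08 in tamoxifen. Slfn3 gave 31.1% ± 1.71 and 22.6% ± 3.83. Both shares were lower in every tamoxifen library than in any oil library, although the mean normalised read counts of Slfn9 and Slfn3 in tamoxifen were 1.25 and 1.15 times those in oil. The share of Slfn2 was 10.1% ± 2.80 in oil and 24.1% ± 11.1 in tamoxifen, with 36.6% in tamoxifen 1. That of Slfn5 was 3.33% ± 0.288 and 8.43% ± 3.66, from 4.70% in tamoxifen 1 to 12.0% in tamoxifen 3. Per length, the mean shares in oil and tamoxifen were 35.8% and 24.1% for Slfn9, 36.3% and 22.3% for Slfn3, 23.9% and 46.5% for Slfn2, and 2.09% and 4.62% for Slfn5.

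**Figure D3:**
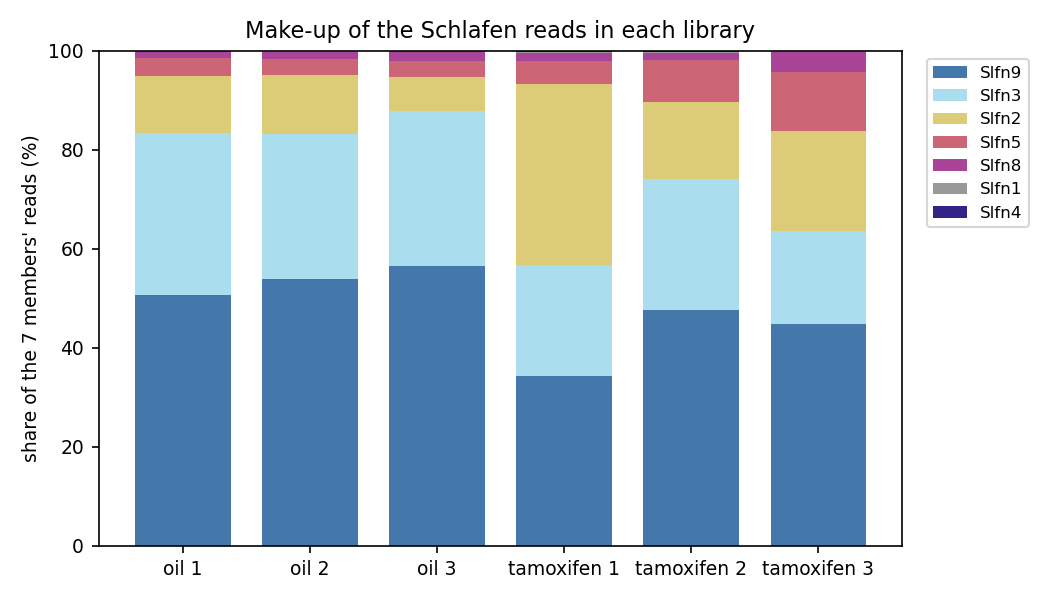
Share (%) of the 7 members' reads taken by each member in the 3 oil and 3 tamoxifen libraries, with bars that sum to 100. Slfn9 and Slfn3 take the largest shares in each oil library, while in tamoxifen 1 Slfn2 reaches 36.6% and in tamoxifen 3 Slfn5 reaches 12.0%.

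Members of the family share sequence, so the counting of reads between them has limits. Slfn8 and Slfn9 each have a coding sequence of 2733 bases with 92.7% identity, and their translated proteins were 85.8% identical over 910 aligned residues. Slfn3 and Slfn4 were 92.7% identical over 1788 aligned coding bases. Over aligned coding bases, Slfn5 was at most 77.0% identical to another member (Slfn1) and Slfn2 at most 78.2% (Slfn3), and in protein they were at most 45.4% and 62.1% identical to another member. Of all stretches of 100 bases in the longest transcript, 0.128% of those of Slfn2, 3.71% of those of Slfn8 and 3.90% of those of Slfn9 also occur in another gene, for the last of these mostly in Slfn10-ps. For Slfn5 it was 6.85%, nearly all in the antisense gene Slfn5os, which overlaps 559 exonic bases of Slfn5. Slfn5os was at 0 in all 6 libraries, though without a stated strand setting reads of the 2 genes cannot be told apart there.

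The differences were also set beside the neighborhood of the cluster. Slfn10-ps was at 166, 146 and 136 in oil 1 to 3 and at 276, 191 and 389 in tamoxifen 1 to 3, without overlap, with a log2 fold change of 0.88 ± 0.29 (SE, adjusted p = 0.666 in limma). Without tamoxifen 1, DESeq2 called it (0.98, adjusted p = 0.0282) and limma did not (adjusted p = 0.235), and limma with library weights called it (1.16, adjusted p = 0.00878). Slfn14, a ribosome-associated nuclease gene of platelets and red cell precursors, overlapped between groups at -0.098 ± 0.26 (SE), and its sign was positive without oil 1 and after GC correction. Of 25 protein-coding genes within 500 kb of either end of the cluster, Slfn14 among them, 12 were tested and none passed the second threshold. Their median log2 fold change was 0.062, against 0.97 for the 5 tested members and -0.017 for all genes tested, and 1 of the 12, 1700020L24Rik at 1.01, did not overlap between groups. Both counts were near the shares over all genes tested (0.480% higher at the second threshold and 7.86% higher without overlap). On the Slfn5 side, the nearest tested neighbors were the ribosome biogenesis gene Nle1 at 0.34 ± 0.28 and the recombination gene Rad51d at 0.15 ± 0.15 (SE). On the far side, the adaptor gene Ap2b1 was at -0.14 ± 0.13 (SE). The tested neighbors Zfp830, Lig3, Rffl, Mmp28, Taf15 and Ccl6 lay between -0.45 and 0.24, all with overlapping groups.

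**Figure D4:**
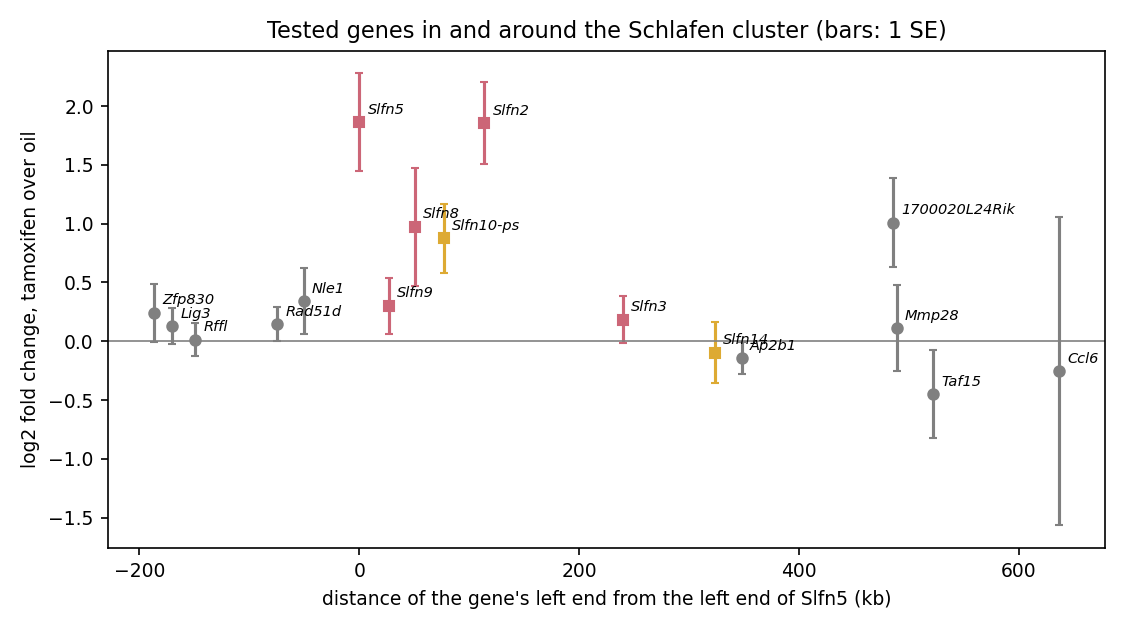
Log2 fold change (tamoxifen over oil, limma, bars of 1 SE) of tested genes against the distance in kb of the gene's left end from that of Slfn5. Red squares are members, yellow squares are Slfn10-ps and Slfn14, and grey circles are other protein-coding genes. Slfn5 and Slfn2 stand highest at 1.87 and 1.85, and the neighbors outside the cluster lie between -0.45 and 0.34 apart from 1700020L24Rik at 1.01.

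Among 40 type I interferon genes, none of them a Schlafen member, 37 were tested. None passed the adjusted threshold in limma, 11 passed the second threshold, all of them higher (0.480% of all genes tested), and 21 did not overlap between groups, all higher (7.86% of all genes tested). Their median log2 fold change was 0.76, and 8 of the 37 were called higher without tamoxifen 1, where 0.309% of all genes were. The antiviral genes Mx2 (2.96 ± 0.53), Ifit1 (2.95 ± 0.26) and Mx1 (2.95 ± 0.44) had the largest log2 fold changes (± SE). In oil, Mx2 (4.42 ± 3.72) and Mx1 (5.94 ± 3.46, SD, n = 3 each) lay under the filter value of 10. Both passed the filter through the tamoxifen libraries only, so their place in this order is a description. Ifit2 (-0.68 ± 0.42), the kinase gene Eif2ak2 (-0.27 ± 0.49) and Jak1 (-0.26 ± 0.21) had the smallest (± SE), with overlapping groups. The ISRE core was found in 13 of the 29 interferon genes with a promoter window, against 3.99% of all genes with one. Among 18 proliferation genes none passed either threshold, 4 were lower and 2 higher without overlap (9.69% of all genes tested were lower without overlap), with a median log2 fold change of -0.072 and a range from the mitotic kinase gene Bub1 at -0.74 and Plk1 at -0.74 to Mcm3 at 0.34 and the cyclin gene Ccne1 at 0.45.

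Schlafen genes are expressed in lymphocytes and myeloid cells, so markers of those cells are given beside the members. In bulk samples, a change in the number of such cells and a change in RNA per cell cannot be told apart. The T cell markers Cd3e, Cd8a, Cd8b1, Cd5 and Cd28 were at 0 in all libraries, as was the B cell marker Ms4a1. The list of 10 T cell markers summed to 40.5 to 68.7 in oil and 33.6 to 104 in tamoxifen, mostly from the kinase gene Lck. The list of 7 B cell markers summed to 13.5 to 27.8 in oil and 50.9 to 57.5 in tamoxifen, with Ighm the highest marker in every library but oil 2. All 12 macrophage markers had reads and summed to 117 to 269 in oil and 298 to 405 in tamoxifen, and the 10 neutrophil markers, with Ly6g at 0, summed to 17.1 to 28.0 and 40.0 to 71.7. The 5 monocyte markers summed to 454 to 528 in oil and 176 to 659 in tamoxifen. Ccr2 made up most of the sum except in tamoxifen 1, where it was at 46.0 against 404 to 536 elsewhere and Cx3cr1 was at 129. The 6 NK cell markers summed to 59.8 to 159 in oil and 193 to 662 in tamoxifen, nearly all from Nkg7, with Ncr1, Klrb1c, Klrd1 and Eomes at 0. The 5 dendritic cell markers summed to 85.3 to 130 in oil and 83.9 to 174 in tamoxifen, with Clec9a at 0. The 5 megakaryocyte markers, with Gp1bb at 0, summed to 165 to 201 in oil and 193 to 638 in tamoxifen, mostly from Itga2b, which was at 158 to 191 in oil and at 616, 182 and 531 in tamoxifen 1 to 3. The macrophage, neutrophil, B cell and NK cell sums were thus higher in every tamoxifen library than in any oil library, as were Slfn5, Slfn2 and Slfn8. Slfn9 and Slfn3 overlapped between groups. The megakaryocyte sum lay above the oil range in tamoxifen 1 and 3 only. The part of these cells in the result was not tested.

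The genes whose levels were most like those of each member over the 6 libraries were ranked by Pearson's r of log2(value + 1), as a description over libraries that share their groups. For Slfn5 they were Ano3 (r = 0.9884), Gng7 (r = 0.9874) and D630023F18Rik (r = 0.9756). For Slfn2 they were the interferon-induced GTPase gene Gbp2 (r = 0.9912), Cgnl1 (r = 0.9896) and the transcriptional repressor gene Gfi1 (r = 0.9869). All 6 of these genes were higher in every tamoxifen library than in any oil library, as 7.86% of all genes tested were. They were picked for likeness to Slfn5 and Slfn2, whose groups do not overlap, so this follows largely from the choice. Slfn8 was closest to Acrbp (r = 0.9812), D430040D24Rik and Rhebl1, Slfn9 to Tmem79 (r = 0.9801), 5430431A17Rik and Gm15816, and Slfn3 to Cdv3 (r = 0.9562), Zdhhc3 and Garnl3. Among the members, r over the 6 libraries was 0.73 for Slfn5 and Slfn2, 0.82 for Slfn5 and Slfn8, and 0.26 for Slfn2 and Slfn3.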

How the data were processed

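The authors aligned and processed reads with STAR and DESeq2 against mm10, per the study's methods and the submitters' processing notes. Annotation, counter and strand setting are not given in the sources used here, and the labels name a Nextera DNA Flex kit. The deposited values are called counts but are a normalised signal, reads divided by 1 size factor per library. In every library 100% of nonzero values were whole multiples of the value of 1 read (tolerance 0.001), which gave 19172471 to 23785143 recovered reads. Rows without a gene name, 1832 of 55450 with 0.0400% to 0.0614% of reads, were left out. Of the 53618 named rows, 52048 matched a GENCODE vM21 symbol.

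From these values, log2(value + 1) was tested with limma 3.58.1 (R 4.3.3, lmFit and eBayes with a trend, two-sided, Benjamini-Hochberg adjustment) on the 12298 genes that reached a value of 10 in at least 3 libraries, and fold changes are on this scale, which understates low genes. DESeq2 1.42.0 and edgeR 4.0.16 were run on recovered reads as alternatives, with voom, other pseudocounts, filters and scalings, a GC correction, library weights, a replicate block and each library left out. DESeq2 and edgeR without tamoxifen 1 were chosen after seeing the data. The fits were tested on simulated data without a GC trend or an outlying library, which does not cover the state of tamoxifen 1. Alignments used biopython, and promoter windows were RefSeq's.

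The members, gene lists and tests were chosen with earlier results of these data known. The named genes were the members, Usp18, tested genes within 500 kb, the extremes of both pathway lists and the 3 genes most like each member. Other Schlafen genes, marker genes and Kit and Ptprc were named for their identity. The results of 1 neighboring gene and 1 marker gene are not reported here.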

Additional observations from a re-analysis of the deposited data

How the results depend on the processing

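Every tested member kept a log2 fold change above 0 in each alternative that could be fitted, 21 for Slfn2, Slfn3, Slfn5 and Slfn9 and 20 for Slfn8, which failed the filter of 1 CPM in 3 libraries. The number of members past an adjusted p of 0.05 was 0 in limma with all libraries, 2 in DESeq2, 4 with library weights, 2 in DESeq2 and 2 in edgeR with tamoxifen 1 left out (both chosen after seeing the data), and 0 to 2 when each library was left out in turn. The number past the second threshold was 2 in limma with all libraries and 0 to 3 on leaving out single libraries. With library weights it was 3 (Slfn5, Slfn8 and Slfn2). The change in the log2 ratio of Slfn5 to Slfn2, 0.011 with all libraries, was -0.071 with a pseudocount of 5 and between -0.376 and 0.724 when each library was left out, with values of -0.026 without oil 1, -0.169 without oil 2, -0.316 without tamoxifen 2 and -0.376 without tamoxifen 3. The cause was not tested. The labels do not say whether libraries with the same replicate number were paired, and correlations of their deviations were -0.0236, 0.0607 and -0.153. Deviations were taken from group means that include tamoxifen 1, so these values cannot exclude a pairing. With the replicate number as a block, 0 members passed the adjusted threshold, where 0 of 12298 genes were called. Slfn5 (1.87) and Slfn2 (1.85) passed the second threshold in that fit, as they did with the block after GC correction (2.13 and 1.86). Shares of all genes past the second threshold are given above only for limma with all libraries and without tamoxifen 1. The other counts of members at that threshold are therefore not set against all genes. Using the longest transcript in place of merged exons put Slfn3 at 88.1 normalised reads per kb in oil. Depth limits Slfn1, Slfn4 and Slfn8, which had at most 58 reads in a library, and Slfn5 in oil, with 28 or 29 reads.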
